A study of Mus musculus with 4 samples.

Results

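The cytokines of type 2 and IL-9-producing helper T cells, together with the regulator Gata3 and receptors for IL-4 and IL-33, were followed as a set of 9 genes in activated CD4+ T cells with and without Irf4. The set holds the ligands Il4, Il5, Il9, Il13, Il24 and Areg, the receptor chains Il4ra and Il1rl1, and the transcription factor Gata3. The genes were given by name, and all array probes whose accession belongs to one of them were taken, which gave 13 probes. Of the 9 genes, 7 were tested, since a probe of theirs was well above background on both WT arrays, on both Irf4-/- arrays or on all 4, among 20505 tested genes or unnamed transcripts and 45526 on the array. Il5 and Areg were below that limit and are described by their signals. This limit asks for brightness in either genotype, so the 7 tested genes do not stand for all 9.

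Naive CD4+ T cells (CD62L+CD44-) came from spleens of male C57BL/6 mice, either wild type (WT) or Irf4-/-. All 4 samples were activated alike, at 100000 cells per well, with an antibody to CD3e at 1 µg/ml and an equal number of mitomycin C-treated antigen-presenting cells of the same strain. Living CD4+ T cells were sorted again on day 2 for RNA, per the design text, which names no polarising cytokine and states that 2 independent experiments were done per genotype. The shared medium held 10% fetal bovine serum and 50 µM 2-mercaptoethanol, and 1 protocol field names cultures of 6 or 24 hours, where the day 2 of the titles was taken. Each genotype has 2 one-colour arrays, and mouse ages, pooling of mice and the structure of the Irf4-/- allele are not given in the sources used here.

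Type 2 helper (Th2) cells make IL-4, IL-5 and IL-13, which drive IgE production, eosinophil growth and mucus secretion. IL-4 binds its receptor chain IL-4Ra on the T cell itself, which activates STAT6 and raises GATA3, the transcription factor that opens the Il4, Il5 and Il13 genes. IL-9 marks a related helper cell (Th9) that arises under IL-4 with TGF-beta. IRF4 is a transcription factor induced by the antigen receptor that pairs with BATF-JUN or ETS-family factors on DNA, works alongside NFAT, and is known from other work to be needed for Th2 and Th9 cytokine production. ST2, the product of Il1rl1, is the receptor for the alarm cytokine IL-33, IL-24 belongs to the IL-10 family, and amphiregulin (Areg) is an epidermal growth factor receptor ligand linked with tissue repair.

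The sequences just before the starts of Il4, Il13, Il5 and Il9 are shown because these 4 are the defining cytokines of the set and Il4 lay on the other side of 0 from Il13 and Il9 in the comparison. They are the 250 bases upstream of the RefSeq gene start in GRCm38.p6, on the gene's strand, 5′ to 3′: Il4 at chr11:53618666-53618915 (minus strand), Il13 at chr11:53634703-53634952 (minus strand), Il5 at chr11:53720544-53720793 (plus strand) and Il9 at chr13:56482258-56482507 (minus strand). Capitals mark every match, on either strand, to the NFAT core motif GGAAA, to the AP-1 site TGANTCA, and to an IRF pair, which is GAAA followed after any 2 bases by another GAAA.
Il4: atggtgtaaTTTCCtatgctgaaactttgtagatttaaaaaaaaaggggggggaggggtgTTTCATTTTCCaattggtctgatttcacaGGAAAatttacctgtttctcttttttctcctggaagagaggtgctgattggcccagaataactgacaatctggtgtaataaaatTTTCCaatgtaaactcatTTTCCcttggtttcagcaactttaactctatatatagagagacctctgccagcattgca
Il13: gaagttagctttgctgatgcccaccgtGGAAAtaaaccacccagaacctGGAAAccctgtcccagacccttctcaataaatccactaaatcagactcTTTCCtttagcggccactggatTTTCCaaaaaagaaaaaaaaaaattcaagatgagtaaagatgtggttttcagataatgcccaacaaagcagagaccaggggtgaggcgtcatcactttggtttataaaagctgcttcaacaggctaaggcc
Il5: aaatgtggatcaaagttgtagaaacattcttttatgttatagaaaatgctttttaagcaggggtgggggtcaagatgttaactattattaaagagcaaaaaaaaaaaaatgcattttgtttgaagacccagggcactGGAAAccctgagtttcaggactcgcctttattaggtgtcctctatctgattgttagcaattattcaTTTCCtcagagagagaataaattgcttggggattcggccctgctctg
Il9: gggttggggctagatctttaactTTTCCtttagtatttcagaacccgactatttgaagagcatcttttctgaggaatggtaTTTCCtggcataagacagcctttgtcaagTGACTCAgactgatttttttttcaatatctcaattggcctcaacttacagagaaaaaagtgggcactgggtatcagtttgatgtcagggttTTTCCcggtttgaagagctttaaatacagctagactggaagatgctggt

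The Il4 sequence held 5 NFAT cores and 1 IRF pair, which starts at base 61 of the printed sequence and overlaps the NFAT core that starts at base 67. Of 32851 mouse promoter sequences of the same length, 0.39% held at least 5 NFAT cores, 2.98% an IRF pair and 55.6% at least 1 NFAT core. The Il13 sequence held 4 NFAT cores, a number reached by 1.59% of promoters, the Il9 sequence 3 (6.39% of promoters) and the Il5 sequence 2 (21.4% of promoters). Il9 alone among these 4 held an AP-1 site, at base 111, a motif found in 6.75% of promoters. The composite motifs of the AP-1 site directly after a GAAA half-site, or 4 bases after its reverse complement, were in none of these 4 windows and in 0.1% and 0.0974% of all promoters. An ETS-IRF pair, GGAA followed after any 2 bases by GAAA and present in 2.3% of promoters, was in none of them either. GATA sites were searched as hexamers with A or T before GATA and A or G after it. The Il13 window held 1 of them, AGATAA, found in 9.99% of promoters, the Il5 window held 1 AGATAG, found in 7.71%, and the printed Il4 and Il9 windows held none. RefSeq lists another Il4 start, whose window at chr11:53617339-53617588 held 0 NFAT cores, 0 IRF pairs, 1 ETS-IRF pair and 1 TGATAG (6.35% of promoters). These matches are letters in a window. Enhancers and the locus control region of these genes lie outside it, and no binding was measured.

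An array had 25677 to 28725 of its 56605 probes well above background, and no spot of the set was saturated. Log2 values correlated at r = 0.992 between the WT arrays and 0.989 between the Irf4-/- arrays, across the 20505 tested genes, which are not independent replicates. All 12 T cell markers read (among them Cd3e, Cd4 and Lck) were well above background on every array. Their summed signal, in units of the array's 75th percentile, was between 1670 and 1888 on the 4 arrays. Of the 12, 4 were higher on both Irf4-/- arrays than on either WT array and 4 were lower. The shares of all tested genes were 17.9% and 21.3%. The Irf4 probe read 5.03 and 4.74 in WT against 4.23 and 4.04 in Irf4-/- (log2 level, defined in the next paragraph), a difference of -0.75 ± 0.20 (limma moderated SE) with a limma adjusted p of 0.231. Whether that probe lies in the deleted part is not known here, so it does not check the labels. Of 20505 tested, limma called 151 at an adjusted p under 0.05, which is 0.736%: 101 higher (0.493%) and 50 lower (0.244%) in Irf4-/-. Quantile normalization called 0 higher and 1 lower. Without WT replicate 1, and without WT replicate 2, no gene was called (1864 and 1678 at an unadjusted p under 0.05). The count was 487 without Irf4-/- replicate 1 and 208 without replicate 2.

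Levels below are log2 of the background-subtracted signal minus the array's 75th percentile, so 0 is a signal at that percentile, and differences are Irf4-/- minus WT with limma's moderated SE (n = 2 arrays per genotype). No member passed an adjusted p of 0.05, against 0.736% of all tested genes. An unadjusted limma p under 0.05 was reached by 5 of the 7 tested genes (Il4, Il13, Il24, Il4ra and Il1rl1), against 11.4% of all tested. In all 7 the Irf4-/- arrays lay outside the range of the WT arrays, 3 above and 4 below, against 39.2% of all tested in either direction (17.9% above and 21.3% below). The median size of the 7 differences was 1.43 log2 units, against 0.18 for all tested genes, and their median with sign was -0.18, against -0.02. Il1rl1 is counted here although only 1 of its Irf4-/- arrays was well above background. It entered the fit only through the WT arrays, on which it is brighter. The set was chosen with earlier results of these data known, so these shares do not test it. With 2 arrays against 2, an exact two-sided permutation test of a single gene cannot go below p = 0.333, which each of the 7 reached.

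**Figure D1:**
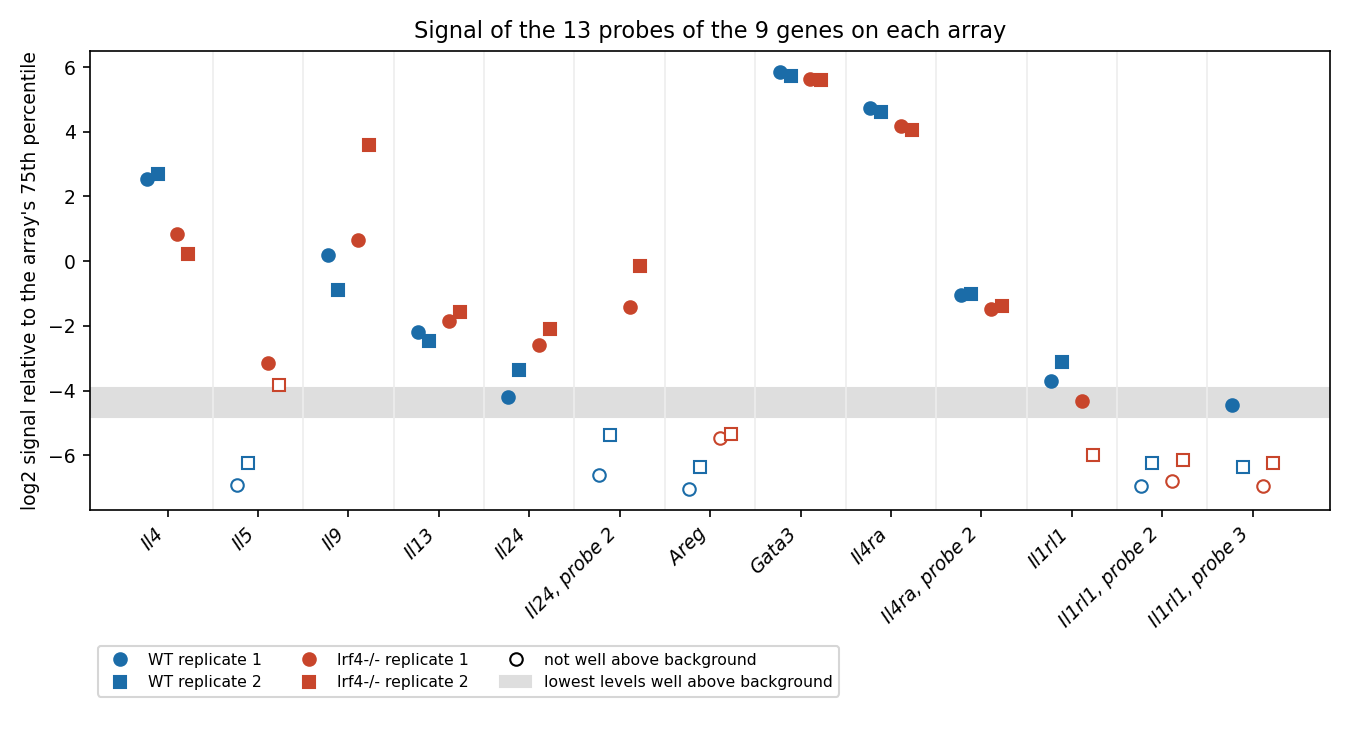
Log2 signal relative to the array's 75th percentile (vertical axis) for the 13 probes of the 9 genes, with 1 point per array, blue for WT and red for Irf4-/-, circles for replicate 1 and squares for replicate 2. Open points were not well above background, and the grey band spans the lowest levels that were on the 4 arrays (-4.82 to -3.93). Both Il4 points of Irf4-/- (0.84 and 0.22) lie below the WT points (2.54 and 2.69), and the Il9 points of Irf4-/- lie far apart (0.65 and 3.59).

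Il4, the cytokine that starts and maintains the Th2 programme, had the smallest p of the set. Its level was 2.54 and 2.69 on the WT arrays and 0.84 and 0.22 on the Irf4-/- arrays. The processed signals behind these levels were 1963 and 1976 in WT and 533 and 354 in Irf4-/-, all well above background. Both Irf4-/- arrays were therefore low, and the gap between the genotypes was wider than that between arrays of either one (SD 0.11 for WT and 0.44 for Irf4-/-). The difference was -2.08 ± 0.26 (95% interval -2.76 to -1.41), a 4.24-fold lower signal, with a limma adjusted p of 0.0561, just outside the threshold. Its size was at percentile 98.7 of all tested genes. Within slide row 1 the signal was 3.24-fold lower and within row 2 it was 5.54-fold lower. Il4 passed the threshold under 8 of the 14 alternatives that give an adjusted p, over which limma's adjusted p ranged from 7.91e-08 to 0.524. Some of those settings called far more genes: 5.08% of all tested with median scaling, 3.89% with trend and robust moderation and 3.71% with normexp background correction, against 1.01% of probes when every probe was fitted on its own. In bulk RNA, fewer cells that make a transcript and less of it per cell cannot be told apart, which holds for every gene here.

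Il13, which lies next to Il4 on chromosome 11 and shares its receptor chain IL-4Ra, differed from WT in the other direction. Its level was -2.18 and -2.46 in WT and -1.86 and -1.57 in Irf4-/-, with every array well above background. The Irf4-/- arrays were the higher ones, by a margin close to the distance between the WT arrays. The difference was 0.61 ± 0.21 (95% interval 0.07 to 1.14), or 1.52-fold, with a limma adjusted p of 0.366, and it was 0.26 with normexp background correction. Set against Il4 on the same array, the Il13 signal shifted by 2.02 log2 units in row 1 and 3.36 in row 2 (mean 2.69, exact permutation p = 0.333, the smallest the design allows). This contrast between the neighbours was chosen after the values were seen.

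Il5, the growth factor of eosinophils and the remaining Th2 cytokine of that cluster, was dim. Its processed signal was 2.79 and 4.03 on the WT arrays, neither well above background, and 33.3 and 21.3 on the Irf4-/- arrays, of which replicate 1 was well above background and replicate 2 was not. No fold is given for it. Il5 was not tested, because only 1 of the Irf4-/- arrays measured it.

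Il9, the cytokine that names Th9 cells and acts on mast cells, had the widest spread of the set. Its level was 0.20 and -0.90 in WT, 0.65 in Irf4-/- replicate 1 and 3.59 in Irf4-/- replicate 2. In signal, that was 387 and 165 in WT against 467 and 3660 in Irf4-/-. Replicate 1 of Irf4-/- was thus just above WT replicate 1, and replicate 2 was far above both. The difference of 2.47 ± 1.01 (95% interval -0.13 to 5.07) had a limma adjusted p of 0.473, although its size, 5.54-fold, was at percentile 99.2 of all tested genes. The signal was 1.37-fold higher in row 1 and 22.4-fold higher in row 2. Without Irf4-/- replicate 2 the difference was 1.00 (limma adjusted p = 0.595), and without Irf4-/- replicate 1 it was 3.94 (limma adjusted p = 0.0162, with the lone Irf4-/- array assumed to vary like the WT arrays).

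Il24, an IL-10 family cytokine that Th2 cells can secrete, was measured by a pair of probes to the same accession. On the brighter one the level was -4.19 and -3.37 in WT and -2.58 and -2.11 in Irf4-/-, a difference of 1.43 ± 0.34 (95% interval 0.54 to 2.32), 2.70-fold, with a limma adjusted p of 0.195. On the other probe the level was -6.60 and -5.38 in WT, neither well above background, and -1.41 and -0.17 in Irf4-/-, both well above it. Both probes were higher in each Irf4-/- array, and they disagreed on the size. The second gave a signal at least 12.6-fold higher in Irf4-/-, with fitted differences of 5.18 in row 1 and 5.21 in row 2 that rest on WT signals of 3.49 and 7.36. When every probe was fitted on its own, this probe passed the threshold (limma adjusted p = 0.0388 among 26331 probes, of which 0.687% were called higher) and the brighter one did not (0.178). That probe entered the fit only through the Irf4-/- arrays, on which it is bright, so its p rests on unmeasured WT signals and only the bound describes its size. The mean of both probes differed by 3.31 (0.0667), and with normexp background correction the brighter one differed by 0.47 (0.196). The second probe was looked at after its values were seen.

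Areg, a growth factor that repairs epithelium, was not measured in either genotype. Its signal was 2.56 and 3.73 in WT and 6.73 and 7.46 in Irf4-/-, none well above background, against lowest measurable signals of 11.7 to 19.9 on the 4 arrays. It too has no fold.

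Gata3, the master regulator of the Th2 fate, had the smallest difference of the 7 tested genes. Its level was 5.86 and 5.73 in WT and 5.62 and 5.61 in Irf4-/-. The difference was -0.18 ± 0.17 (limma adjusted p = 0.854), and its 95% interval of -0.62 to 0.25 holds both directions. Over the alternatives the difference ran from -0.29 to -0.11. That size, 1.13-fold, was at percentile 50.2 of all tested genes. Relative to Gata3 on the same array, Il4 differed by -1.46 log2 units in row 1 and -2.35 in row 2, a mean of -1.90 with an exact permutation p of 0.333, the smallest possible.

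Il4ra, the chain through which IL-4 and IL-13 signal, was slightly lower in Irf4-/- with little spread. Its level was 4.75 and 4.61 in WT and 4.16 and 4.04 in Irf4-/-. The difference of -0.58 ± 0.17 (95% interval -1.02 to -0.13) was nearly the same in both rows, -0.58 and -0.57, and amounted to a 1.49-fold lower signal, with a limma adjusted p of 0.298. A second, dimmer probe of the same accession read -1.06 and -1.03 in WT and -1.47 and -1.40 in Irf4-/-, 1.31-fold lower. Both probes separated the genotypes in the same direction, and neither passed the threshold. Relative to Il4ra on the same array, Il4 was lower by a mean of -1.51 log2 units.

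Il1rl1, the IL-33 receptor, was dim in all samples. Its brightest probe read -3.71 and -3.10 in WT, and -4.32 and -5.98 in Irf4-/-, where replicate 2 was not well above background. The difference was -1.74 ± 0.59 (95% interval -3.25 to -0.23), 3.34-fold lower, with a limma adjusted p of 0.354. It rested mainly on that unmeasured array: row 1 differed by -0.60 and row 2 by -2.88. Il1rl1 entered the fit only through the WT arrays, so its fold, interval and p rest partly on an unmeasured Irf4-/- signal. Without Irf4-/- replicate 2 the difference was -0.91, and under normexp background correction it was -0.37. Without Irf4-/- replicate 1 it was -2.57, which sets WT against the unmeasured array alone. Of the other 2 probes of the gene, one was well above background on WT replicate 1 only and one, to another transcript accession, on no array.

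**Figure D2:**
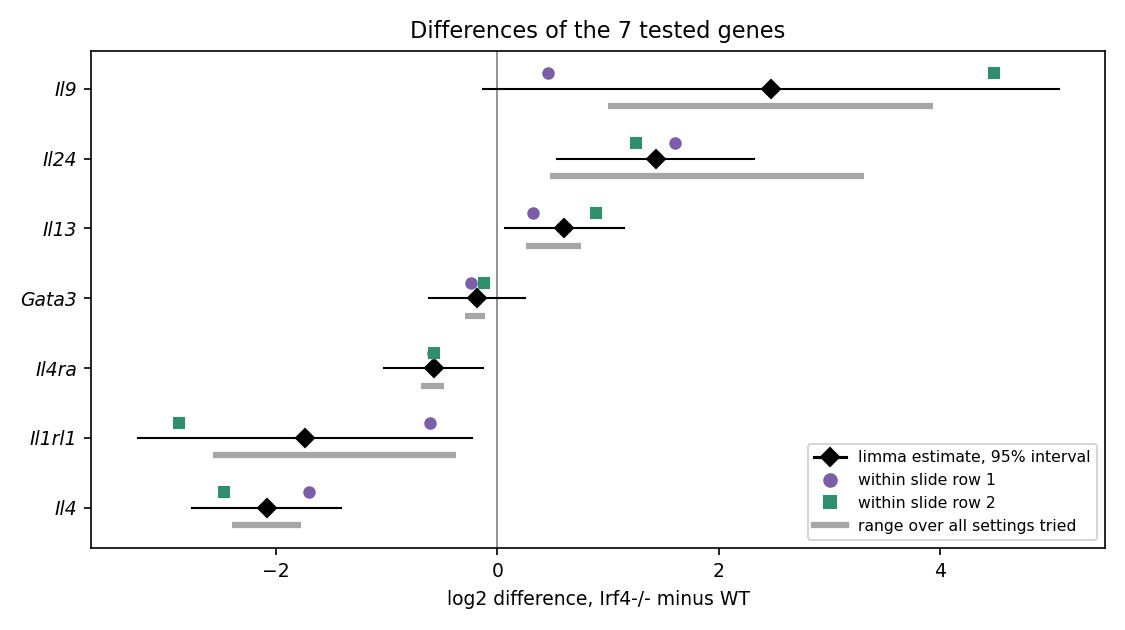
Log2 difference, Irf4-/- minus WT (horizontal axis), for the 7 tested genes. Black diamonds and lines are the limma estimate and its 95% interval, circles and squares the difference within slide rows 1 and 2, and grey bars the range over all settings tried. Il4 lies at -2.08 with its rows at -1.70 and -2.47, whereas the rows of Il9 stand at 0.46 and 4.48. The values of Il1rl1 rest partly on an Irf4-/- signal not well above background.

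The genes beside the members on the chromosome were read in the order of the RefSeq table, in 3 windows chosen after the values were seen. Around Il4, from Sowaha to Fnip1 on chromosome 11, 14 of 18 genes were tested, 4 with positive and 10 with negative differences, and 2 passed the threshold. Like all calls of the main comparison, they were lost without WT replicate 1 and without WT replicate 2. Csf2, which encodes the myeloid growth factor GM-CSF, was -0.86 and -1.28 in WT and 3.03 and 4.05 in Irf4-/-, and rose 24.4-fold (4.61 ± 0.39, limma adjusted p = 0.0318). Septin8, a cytoskeletal septin on the other side of Il4, fell by 1.82 ± 0.19 on the log2 scale (limma adjusted p = 0.0428). Between them, Kif3a next to Il4 differed by -0.62 (adjusted p = 0.314), and Rad50, the repair gene that carries the Th2 locus control region, by -0.08 (0.958). Irf1, beyond Il5, differed by 0.24 and Il3, beyond Csf2, by 2.25 (0.215). Pdlim4 differed by -1.78 (0.0809). Acsl6 was well above background on the WT arrays only and was at least 2.12-fold lower in Irf4-/-. The 3 Th2 cytokines thus lay among neighbours on both sides of 0, with Il4 low, Il13 slightly high and Il5 measured on a single Irf4-/- array.

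In the receptor cluster on chromosome 1, Il1rl1 was lower and its neighbours for IL-18 were higher, though none of the 5 tested of 8 genes passed the threshold. Il18r1, the IL-18 receptor chain, was -2.86 and -1.58 in WT and -0.11 and 0.56 in Irf4-/- (difference 2.45, limma adjusted p = 0.136). Il18rap, its partner chain, was well above background in Irf4-/- only, at least 4.81-fold higher (0.0706). The p of Il18rap rests on unmeasured WT signals, since it entered the test only through the Irf4-/- arrays. In row 1, where both genes were measured on both arrays, Il18r1 shifted by 3.36 log2 units relative to Il1rl1. In row 2 Il1rl1 was not well above background in Irf4-/-, and no shift is given. Around Il24, 1 of 6 tested of 9 genes passed: Fcmr, the receptor for IgM, rose by 1.67 ± 0.17 on the log2 scale (limma adjusted p = 0.0395). Il10, the founding member of the IL-10 family, differed by 0.02 (0.998), Il20 was above background on no array and Il19 on 1 Irf4-/- array. Next to Il4ra, the IL-21 receptor gene Il21r differed by 0.10 (adjusted p = 0.941).

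**Figure D3:**
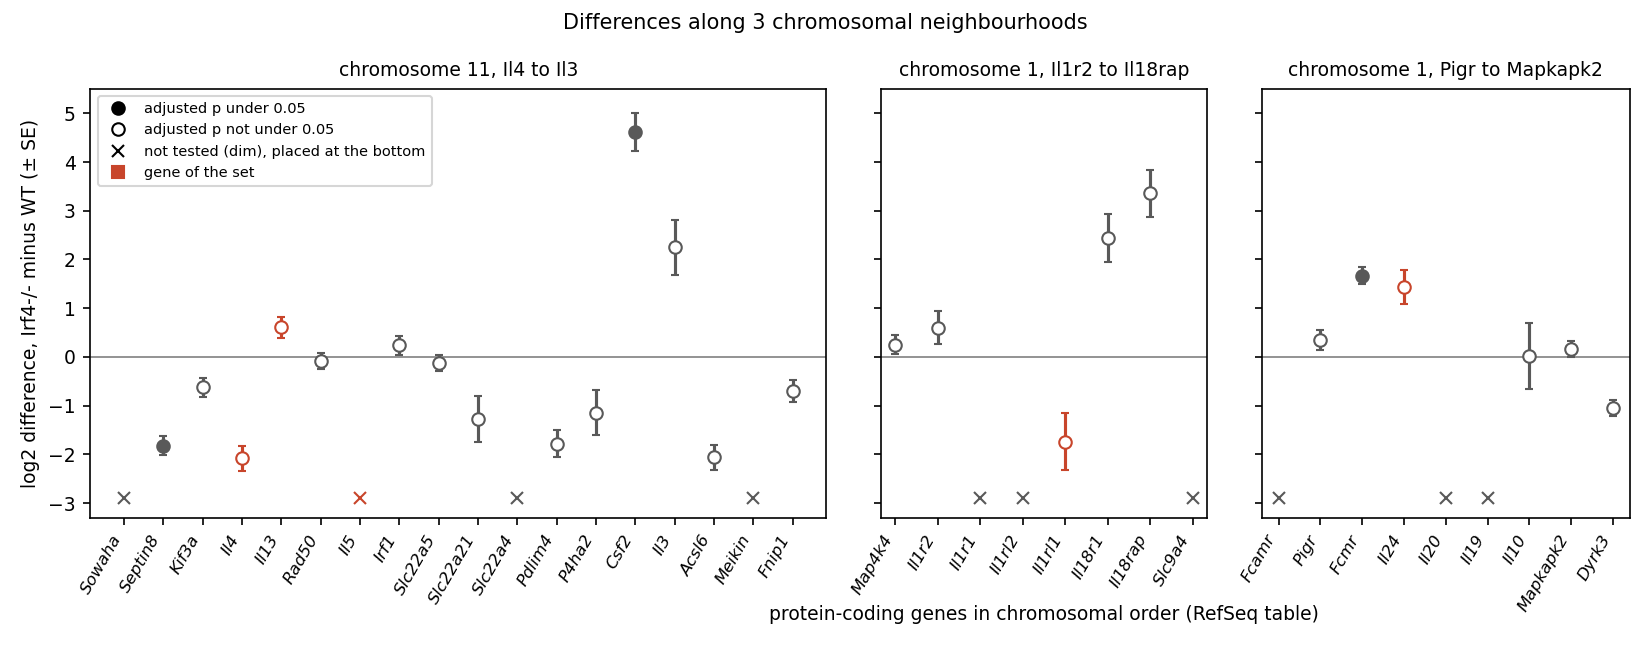
Log2 difference, Irf4-/- minus WT, with its SE (vertical axis), for genes in chromosomal order around Il4 (left), Il1rl1 (middle) and Il24 (right), with members of the set in red. Filled points passed an adjusted p of 0.05, open ones did not, and crosses at the bottom are genes too dim to test. Csf2 at 4.61 and Septin8 at -1.82 are the filled points of the left panel, and Fcmr at 1.67 is that of the right one. The point of Il18rap is a fitted value over WT signals not well above background.

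Other genes of the Th2 and Th9 pathways were taken as 6 lists of 154 genes, 117 of them tested, of which 4 were called higher and 1 lower (against 0.493% and 0.244% of all tested genes). Of the 4, Il31 and Calca entered the fit only through the Irf4-/- arrays, on which they are bright, so this count does not test the lists. Their median difference was 0.03, against -0.02 for all tested. No pathway gene was called without WT replicate 1 or without WT replicate 2, and 12 were called without Irf4-/- replicate 1.

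Among 21 receptors and receptor chains, 12 were tested and none passed, 6 positive and 6 negative, with a median of 0.0016. Il2rg, the common chain that pairs with IL-4Ra and the IL-9 receptor, differed by 0.26 (limma adjusted p = 0.788), and Il1rap, the partner of ST2, by 0.32 (0.797). Ccr8 and Ccr4, chemokine receptors that both mark Th2 cells, lay on opposite sides: Ccr8 was 1.52 and 1.30 in WT and 2.85 and 3.0 in Irf4-/- (difference 1.51, adjusted p = 0.0543), and Ccr4 was 1.90 and 1.31 in WT and 0.09 and -0.02 in Irf4-/- (-1.57, 0.0837). Il9r, the receptor for IL-9, was well above background on 1 WT array and both Irf4-/- arrays and differed by 2.76 (0.0684). Il9r entered the test only through the Irf4-/- arrays, so that p rests partly on an unmeasured WT signal. Of 22 genes of IL-4 and IL-33 signalling, 21 were tested and none passed, 12 positive and 9 negative, with a median of 0.12. Stat6, the factor that carries the IL-4 signal, differed by -0.08 (0.956), Irs2, an adaptor of the IL-4 receptor, by 0.72 (0.333) and Jak2 by -0.58 (0.336).

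Of 30 positive regulators of these cytokine genes, 27 were tested and 1 passed, 11 positive and 16 negative, with a median of -0.07. The gene that passed was Batf3, a relative of the IRF4 partner BATF. It was 0.20 and 0.83 in WT and -3.20 and -3.04 in Irf4-/-, and fell by 3.63 ± 0.26 on the log2 scale (limma adjusted p = 0.0318). Batf itself was the list's largest positive value, 0.91 (adjusted p = 0.165). Maf, which drives Il4 transcription in Th2 cells, was -1.26 and -0.25 in WT and -2.96 and -4.52 in Irf4-/-, the last not well above background (difference -2.99, adjusted p = 0.144). Maf entered the test only through the WT arrays, so that p rests partly on an unmeasured Irf4-/- signal. Nfatc2, the NFAT factor of resting T cells, differed by -0.79 (0.166). Of 25 regulators that oppose the Th2 programme, 23 were tested and none passed, 9 positive and 14 negative, with a median of -0.07. Tbx21, the Th1 regulator T-bet, differed by -0.96 (0.117) and Eomes, its relative, by 1.44 (0.280).

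Of 32 other cytokines and secreted mediators that Th2 and Th9 cells make or meet, 20 were tested. The 4 called higher were Csf2, described above, Il31, Calca and Penk. The list had 14 positive and 6 negative differences and a median of 0.46. Il31, an itch cytokine of Th2 cells, was not well above background on either WT array and read -1.38 and -0.80 in Irf4-/-, at least 10.2-fold higher (limma adjusted p = 0.0293). It entered the test only through the Irf4-/- arrays, so its p rests on unmeasured WT signals. Calca, which encodes the neuropeptide CGRP, was -4.32 and -3.94 in WT and 0.22 and -0.45 in Irf4-/- (4.02 ± 0.29, 0.0318). Calca was well above background on 1 WT array only and entered the test only through the Irf4-/- arrays. Its difference and p thus rest partly on an unmeasured WT signal. Penk, which encodes the opioid precursor proenkephalin, was 1.85 and 1.51 in WT and 4.10 and 4.87 in Irf4-/-, 6.97-fold higher (2.80 ± 0.31, 0.0456). Of the negative values, Il21, a cytokine of follicular helper T cells, was at least 8.92-fold lower (limma adjusted p = 0.121). Il21 was not well above background in Irf4-/-, so that p rests on unmeasured Irf4-/- signals. Il2 differed by -0.98 (0.133). Of 24 surface and effector genes tied to Th2 cells, 14 were tested and none passed, 9 positive and 5 negative, with a median of 0.52. Plac8 differed by 2.66 (0.117) and the amino acid transporter gene Slc7a8 by -1.96 (0.166).

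**Figure D4:**
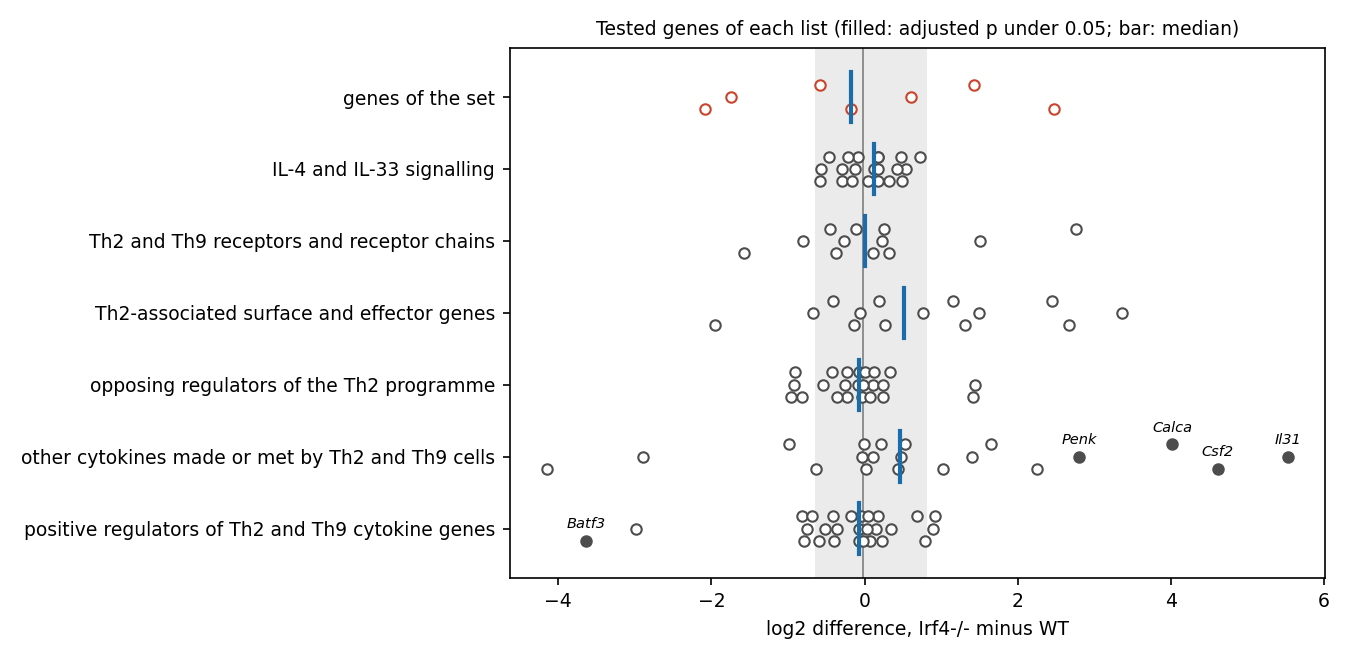
Log2 difference, Irf4-/- minus WT (horizontal axis), with 1 point per tested gene of the set (red) and of the 6 pathway lists, filled where the adjusted p was under 0.05. Blue bars are list medians, and the grey band spans the 5th to the 95th percentile of all tested genes (-0.64 to 0.80). Batf3, Penk, Calca, Csf2 and Il31 are the filled points, and 4 of the 7 genes of the set lie outside the band. The points of Il31 and Calca rest on WT signals not well above background, on both WT arrays for Il31 and on 1 for Calca.

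Mast cells, basophils and eosinophils also make several of these cytokines, and their markers were read beside them. Of 16 such markers on the array, 2 were well above background on all 4 arrays (Tpsb2 and Hdc) and 9 on none, among them the defining genes Cpa3, Mcpt8, Mcpt4, Gata2, Epx and Prg2. The summed signal of the list was 1.62 and 1.52 in WT and 2.36 and 3.10 in Irf4-/-, in units of the array's 75th percentile. Its brightest marker was Hdc on both WT arrays and on Irf4-/- replicate 1, and Kit on Irf4-/- replicate 2. Kit, the stem cell factor receptor, was -6.50 and -6.32 in WT, not well above background, and -1.62 and 0.44 in Irf4-/-, at least 14.4-fold higher (limma adjusted p = 0.0505). Ms4a2, an IgE receptor chain, was likewise measured in Irf4-/- only, at least 2.41-fold higher (0.0533). Kit and Ms4a2 entered the test only through the Irf4-/- arrays, so their p-values rest on unmeasured WT signals and only the bounds describe their size. Other markers of the list were mixed. Cma1 was well above background on Irf4-/- replicate 2 only, and Prss34 on Irf4-/- replicate 1 only. Tpsb2, a mast cell tryptase, was -2.13 and -2.14 in WT and -2.47 and -2.23 in Irf4-/-. Fcer1a, the IgE-binding receptor chain, was -4.04 and -3.90 in WT and -3.62 and -4.83 in Irf4-/-, the last not well above background. Hdc, which makes histamine, was 0.15 and -0.11 in WT and 0.56 and -0.05 in Irf4-/-, with overlapping genotypes. Kit and Ms4a2 were named after their values were seen. Il9, Il13 and Il24 were also higher on both Irf4-/- arrays than on either WT array. For Il13, and for Il9 on Irf4-/- replicate 1, the margin was small. The part of mast cells, basophils and eosinophils in those values was not tested. Summed markers of B cells were 3.09 and 1.61 in WT and 5.55 and 2.38 in Irf4-/-, those of NK cells 5.09 and 4.28 against 8.88 and 5.63, those of myeloid cells 12.6 and 13.3 against 12.9 and 12.5, those of red cells and platelets 0.695 and 0.509 against 0.877 and 1.72, and those of cytotoxic T cells 8.77 and 9.29 against 4.76 and 4.45. A sum follows its brightest markers, which were Itgam and Csf1r for myeloid cells, Eomes and Klrk1 for NK cells and Cd8b1 for cytotoxic T cells. Of 6 tested myeloid markers, 5 had positive differences and 1 a negative one, with a median of 0.75. Tyrobp had the largest, 1.87. Cd8a was well above background on the replicate 1 array of each genotype only. The part of these cells in the results was not tested either. Both WT arrays lay in slide column 1 and the Irf4-/- arrays in columns 3 and 2, so slide column and genotype cannot be told apart.

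Genes whose pattern over the 4 arrays was most like a member's were found as the smallest root mean square distance between centred log2 values, among 12029 named genes well above background on all arrays. For Il9 the nearest was Il3, another T cell cytokine that acts on mast cells, at 0.559 log2 units, with -0.97 and -1.13 in WT and 0.35 and 2.04 in Irf4-/-. Like Il9, Il3 was highest on Irf4-/- replicate 2. Scin followed at 0.585. For Il4 the nearest were 1700017B05Rik and Epas1, a hypoxia-inducible factor subunit, both at 0.143. For Il13 they were Nmi (0.0221) and Atp10a (0.0353), for Il24 Tdrd7 (0.104) and Acsbg1 (0.115), for Gata3 Mettl14 (0.00822) and Wbp4 (0.00866), and for Il4ra Pkp3 (0.0137) and BC064078 (0.0150). The distances of Il4 and Il9 were the larger ones. Such a distance depends on how much a member varies over the arrays, which was little for Gata3. Its size therefore does not rank closeness between members.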

How the data were processed

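Total RNA of 4 samples was hybridised to 4 one-colour (Cy3) Agilent arrays on 1 slide, scanned once. Per the file headers, the authors ran Agilent Feature Extraction 11.0.1.1 to get spot intensity, while the submitters' processing notes name version 9.1. The intensity taken from the deposited scanner files was the processed signal, background-subtracted and not normalized between arrays. A second deposited file, with log2 values by the authors, matched log2 of that signal less the array's 75th percentile with each probe centred over the arrays (shifts of at most 0.03). It served as an alternative. Its column medians were -0.16 and 0.10 for WT and -0.11 and 0.12 for Irf4-/-, so its scale, centring and direction were read from this match.

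Control spots and flagged spots were left out, and spots of a probe were averaged. By accession, 32994 probes received 1 of 22911 symbols from RefSeq (GRCm38.p6), and 23611 probes were not matched. The array was designed on mm9, so no coordinates are given for probes or genes. Promoter sequences and their coordinates come from RefSeq (GRCm38.p6), where 8 of the 9 genes matched.

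Values were log2 signal minus the 75th percentile of the array's non-control spots. The probe with the highest mean represented a gene. Genes measured above background on both arrays of either genotype entered the fit in limma 3.58.1 under R 4.3.3 (lmFit, then eBayes with no trend), Benjamini-Hochberg adjusted over all 20505, at a threshold of 0.05. The fit had 2 residual and 2.95 prior degrees of freedom. A fold written "at least" divides the mean of the brighter genotype by that of the dimmer, with each dim signal raised to the lowest one well above background on its array. The number of arrays limits the precision. The labels report independent experiments and do not tie samples to mice, so p-values measure the spread between these samples.

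Alternatives changed background (normexp, offset 50, on median signals, since the mean signal planned for it was not used here), scaling, source, filter, probe choice, moderation, block and arrays. Named beside the members were, per pathway list, all genes that passed. Where none passed, the largest value in each direction among genes measured on all arrays was named. Some of the nearest neighbours on the chromosome were named as well, with none for Il9, Areg and Gata3, and the 2 genes of most similar pattern. Il2rg, Il1rap, Stat6, Il9r, Batf, Maf, Nfatc2, Il21, Il2, Kit, Ms4a2, Fcer1a, Cma1, Prss34, Csf1r and Cd8a were chosen after their values were seen. So were the windows and the within-array ratios. The members and lists were chosen with earlier results of these data known. The fits were tested on simulated data.

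Replicate numbers follow accession order and coincide with slide rows. Deviations of same-numbered arrays from their group means correlated at r = 0.348 across genes, and no label ties a number to a shared experiment.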

Additional observations from a re-analysis of the deposited data

How the results depend on the processing

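The 7 tested genes kept their direction under all alternatives, 15 for each and 14 for Il1rl1, which has no value where a signal on all 4 arrays is required. For the brightest probe, the settings of filter, probe-level fit, moderation, block and unadjusted p return the same estimate by construction, so only the settings of background, scaling, source, probe averaging and arrays could have turned a direction. Il4 passed the threshold with normexp (-1.89), median scaling (-2.19), the authors' deposited table (-2.10), probes above background on all arrays, every probe fitted on its own and eBayes with trend and robust settings (-2.08 each, also with an unadjusted p), and ranged from -2.40 to -1.77 with 1 array left out, passing without either Irf4-/- array and not without either WT array. With median scaling Il9 (2.36), Il24 (1.32) and Il1rl1 (-1.85) passed as well. That setting moved the median of all genes from -0.02 to -0.13 and gave all genes nearly 1 error. With an unadjusted p, Il24 (1.43), Il13 (0.61), Il4ra (-0.58) and Il1rl1 (-1.74) passed. Leaving out 1 array gave 1.00 to 3.94 for Il9 and -2.57 to -0.91 for Il1rl1. By the brightest probe of each gene, the members called were 0 higher and 1 lower with normexp, the deposited table, the all-array filter, probe-level fits and trend, 2 and 2 with median scaling, 2 and 3 unadjusted, and 0 to 1 and 0 to 2 with 1 array left out. The second Il24 probe, which is not counted here, was called higher in the probe-level fits.

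Genes called higher and lower were 461 and 299 with normexp, 0 and 1 with quantile normalization, 594 and 448 with median scaling, 179 and 81 with the deposited table, 181 and 86 with every probe on its own, 486 and 311 with trend and robust settings, 1303 and 1028 unadjusted, and 0 to 331 and 0 to 156 with 1 array left out. Without the filter on dim probes they were 0 and 0 (limma, 2099 at an unadjusted p under 0.05). Pathway genes called were 29 with normexp, 0 with quantile normalization, 23 with median scaling, 8 with the deposited table, 0 without the filter, 23 with trend and robust settings, 39 unadjusted and 0 to 12 with 1 array left out. With the replicate number as a block, limma called 0 genes in each direction and 0 pathway genes (3195 at an unadjusted p under 0.05), and Il4 kept -2.08 with an adjusted p of 0.139. The numbers are not known to pair the samples. The causes of these shifts were not tested. Il5, Areg and 1 array of Il1rl1 are limited by signal over background.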
